A study of Mus musculus with 444 samples.

Results

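The genes described here are the replication-dependent histone genes of the mouse, taken as every gene whose symbol or synonym begins with Hist1h, Hist2h, Hist3h or Hist4h. There were 69 of them among the 25136 genes analysed, namely 6 for the linker histone H1, 19 each for H2A and H2B, 12 for H3 and 13 for H4. They were measured in single mammary epithelial cells of female FVB/NJ mice, an inbred laboratory strain, to ask how the gland's cells differ between the stage of ductal growth and the mature stage. The deposited cells comprised 221 from puberty (age 5 weeks) and 223 from adult mice (age 10 weeks), labelled as total epithelium and given no treatment. The pubertal age is that of the methods, and the names of the deposited pubertal tables carry 4 weeks. Glands of several mice were pooled for each sort, in independent experiments, and cells bearing CD31, CD45 or TER119 were gated out. Each cell was captured in a chamber of the Fluidigm C1, where its polyadenylated RNA was turned into cDNA and amplified without molecular identifiers. The labels name no mouse, sort or capture run, so each stage stood as 1 sample and no test was possible. Intervals below are 95% intervals that cover counting error only, not differences between mice or captures, and cells are not replicates of a stage.

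Core histones H2A, H2B, H3 and H4 form the spool on which DNA is wound, and H1 binds the linker between spools. Most of their supply in a dividing cell comes from clustered genes that are transcribed together when DNA is copied. Their mRNAs are unusual in ending with a short stem-loop in place of a poly(A) tail, and SLBP, the stem-loop binding protein, escorts them. Some of the same genes also give polyadenylated transcripts in cells that have left the cycle, and the protocol used here converts polyadenylated RNA. Replacement histones such as H2A.Z and H3.3 come from ordinary polyadenylated mRNAs in all phases.

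The stem-loop that defines these mRNAs could be read in the GENCODE transcripts of 46 of the 67 genes that have one, against 55 of 21901 protein-coding genes in all (0.251%). It is shown for 6 genes that recur below, with the stem-loop in capitals and 5 bases on either side in lower case (GRCm38 annotation, 5′ to 3′, letters of the transcript). In Hist1h1c it lies at chr13:23739512-23739527 (plus strand) and in Hist1h2ae at chr13:23570668-23570683 (minus strand). In Hist1h3c it lies at chr13:23745047-23745062 (minus strand) and in Hist1h4d at chr13:23581950-23581965 (plus strand). In Hist2h4 it lies at chr3:96262939-96262954 (minus strand) and in Hist3h2a at chr11:58955172-58955187 (plus strand).
Hist1h1c: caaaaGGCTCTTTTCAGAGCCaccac
Hist1h2ae: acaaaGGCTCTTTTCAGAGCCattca
Hist1h3c: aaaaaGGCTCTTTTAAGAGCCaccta
Hist1h4d: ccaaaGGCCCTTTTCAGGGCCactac
Hist2h4: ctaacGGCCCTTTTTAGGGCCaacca
Hist3h2a: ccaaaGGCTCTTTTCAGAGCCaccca

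The paired arms of the stem differ between genes while the loop stays rich in T. No such match was present in the transcripts of Hist1h2bc, Hist1h1b or Hist2h2be, which says only that these letters are not in those transcripts. In 14 genes the annotated transcript ran on past the stem-loop to a poly(A) signal, AATAAA, and among these were Hist1h1c, Hist1h2ae, Hist2h4 and Hist3h2a.

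Promoters are shown for Hist1h4d and Hist1h1c, because they gave different detection patterns across dividing cells in puberty. Each is the 250 bases before the annotated start on the plus strand of GRCm38.p6 (RefSeq), with CCAAT (or ATTGG, its reverse) and TATAAA in capitals. The Hist1h4d window is chr13:23581318-23581567 and holds ATTGG 40 bases and TATAAA 32 bases before the start, while the Hist1h1c window is chr13:23738557-23738806 and holds CCAAT 54 bases before it.
Hist1h4d: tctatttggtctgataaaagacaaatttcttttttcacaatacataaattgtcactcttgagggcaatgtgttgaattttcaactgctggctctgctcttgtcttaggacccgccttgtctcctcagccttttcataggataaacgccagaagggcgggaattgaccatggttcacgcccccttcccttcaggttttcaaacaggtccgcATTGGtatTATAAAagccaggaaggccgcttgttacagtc
Hist1h1c: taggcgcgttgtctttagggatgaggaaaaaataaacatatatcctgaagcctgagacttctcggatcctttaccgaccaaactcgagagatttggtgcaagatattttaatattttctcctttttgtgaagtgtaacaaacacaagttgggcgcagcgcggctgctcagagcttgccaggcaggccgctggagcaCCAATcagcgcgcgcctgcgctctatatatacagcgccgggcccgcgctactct

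RefSeq promoters of 62 histone genes were found. Over windows from 250 bases before to 50 after the start, CCAAT on either strand was present in 53 of them (85.5%, against 37.4% of all 32851 promoters). TATAAA on the gene's strand was present in 30 (48.4%, against 8.32%), and the octamer ATTTGCAT on either strand in 14 (22.6%, against 1.74%). The octamer was found in 7 H2A and 7 H2B genes and in no other family.

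The histone genes lie mostly on chromosome 13 (55 genes), with 10 on chromosome 3, 3 on chromosome 11 and 1 on chromosome 6. Many are close copies of one another, which limits how far a read can be given to 1 gene. All 13 H4 genes encode the same 103-residue protein, and 9 of the 19 H2A genes encode 1 identical protein. Of the windows of 75 bases in the coding sequence, the median share found in no other annotated gene was 35.7% in the H4 family, 33.0% in H2B, 22.6% in H3 and 13.0% in H2A, against 91.2% in H1. In 13 genes no coding window was the gene's own, and in 7 genes every one was. The use of strand in counting was not stated, and 5 of the genes overlap another gene, among them Hist3h2a, which overlaps Trim17.

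The filter of 100000 read pairs and 1500 detected genes kept 323 cells, made up of 171 pubertal and 152 adult cells. The adult cells were further divided by the cell number in their titles into cells 48 to 188 (107 kept) and the other adult cells (45 kept), a split that an earlier analysis of these data had made on reads of Rn7sk, the 7SK small nuclear RNA. Kept cells held between 100883 and 1354378 read pairs, and each was thinned to 100000 read pairs, at which the median cell had 2818 genes detected in puberty, 2836 in adult cells 48 to 188 and 2192 in the other adult cells. Levels are counts scaled to a total of 1000000 (CPM), so 1 read in a thinned cell is 10 CPM. As epithelium, 98.8% of pubertal and 98.0% of adult cells had reads on Krt8, Krt18, Krt19 or Epcam. Reads on 6 fibroblast genes summed to 1269 CPM in puberty, 549.5 CPM in adult cells 48 to 188 and 2071 CPM in the other adult cells, of which the 5 highest cells held 62.7%, 76.3% and 91.8%. Their part in the histone levels was not tested.

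Histone reads were scarce in all 3 sets and were found in most cells. The 69 genes together reached 328 CPM in puberty (320 to 337), 241 CPM in adult cells 48 to 188 (232 to 251) and 253 CPM in the other adult cells (238 to 268). The difference between the stages was a log2 ratio of 0.42 (0.36 to 0.48) with 1 CPM added to both sides. At least 1 histone read was present in 143 of 171 pubertal cells (83.6%, 77.2 to 88.8%), in 78 of 107 adult cells 48 to 188 (72.9%, 63.4 to 81.0%) and in 37 of the other 45 (82.2%, 67.9 to 92.0%). Per cell, the lowest summed level was 0 in each set, the median was 160, 40 and 50 CPM in that order, and the highest was 5520, 3770 and 1680 CPM. The ranges overlapped, and the pubertal lower quartile (40 CPM) equalled the median of adult cells 48 to 188. The median cell detected 2 histone genes in puberty and 1 in each adult set. The stage difference was sensitive to depth and to single cells: it was 0.08 on unthinned counts and 0.28 without pubertal cell 69, described below. Against the other adult cells alone the ratio was 0.37 (0.28 to 0.47) and turned to −0.34 on unthinned counts.

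**Figure D1:**
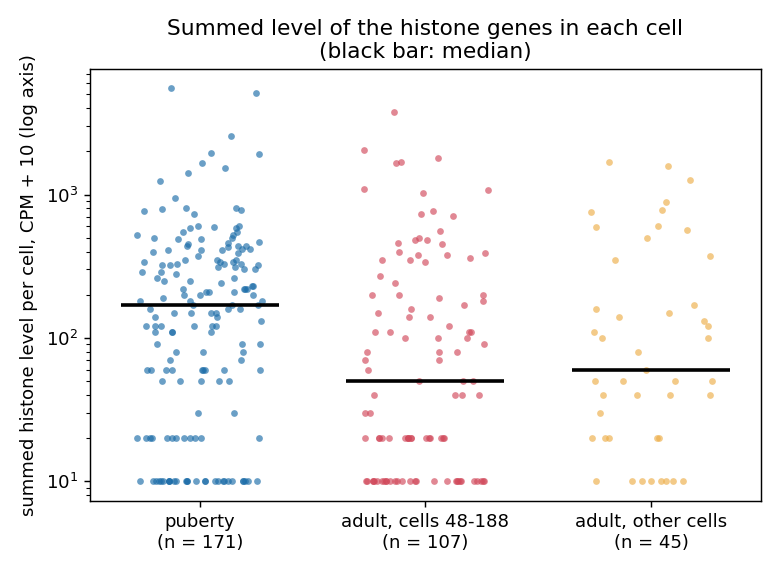
Summed level of the 69 histone genes in each retained cell, in CPM with 10 CPM added so that cells without reads can be drawn on the log axis; each point is a cell and the black bar is the median of the set. The medians before the addition were 160, 40 and 50 CPM, and the ranges of the 3 sets overlap.

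The level was carried by few genes. The 5 highest held 68.1% of the histone reads and the 10 highest 81.3%. Only 3 genes were detected in 20% or more of all retained cells, 8 in 5 to 20%, 51 in fewer than 5% and 7 in none. The median histone gene was detected in 1.55% of cells, against 7.12% for all genes with reads. In 24 of the 62 genes with reads, 1 cell held over 50% of the reads. The 7 genes with no read at this depth were Hist1h1t, Hist1h2af, Hist1h3a, Hist1h3g, Hist1h4m, Hist3h2ba and Hist3h2bb, named after their values were seen. Over 171 cells a floor of 3 reads is 0.175 CPM, which takes reads as independent although they often came from few cells.

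Among the linker histones, Hist1h1c (H1.2) was the most frequent. Its level per cell ran from 0 to 1850 CPM in puberty, 0 to 3570 CPM in adult cells 48 to 188 and 0 to 560 CPM in the other adult cells, with a median above 0 only in the last set, where 51.1% of cells (35.8 to 66.3%) had reads. The share was 33.3% (26.3 to 40.9%) in puberty and 15.0% (8.79 to 23.1%) in adult cells 48 to 188. Its sums of 51.4, 60.2 and 61.3 CPM hid this order, since cell 93 alone held 55.4% of the reads in adult cells 48 to 188. Hist1h1e (H1.4) was detected in 17 pubertal cells, 5 adult cells 48 to 188 and none of the other 45 adult cells. The last count allows a share of up to 7.87% of cells. Adult cell 153 held 83.9% of the Hist1h1e reads of its set. Hist1h1b (H1.5) had reads in 12 pubertal cells and 3 adult cells.

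H2B was the family with the largest summed level in puberty, 124 CPM, and Hist1h2bc accounted for most of it. Hist1h2bc lies at chr13:23684199-23692480. Its level per cell reached 2460, 1690 and 1470 CPM in puberty, adult cells 48 to 188 and the other adult cells, and the lowest was 0. It was detected in 42.1% of pubertal cells (34.6 to 49.9%), 21.5% of adult cells 48 to 188 (14.1 to 30.5%) and 31.1% of the other adult cells (18.2 to 46.6%), with sums of 91.9, 60.6 and 98.9 CPM. The order of the sums was therefore not the order of the shares. Hist1h2bg was detected in 11, 5 and 0 cells of the 3 sets, and 1 cell held 86.0% of its reads in adult cells 48 to 188. Hist2h2bb was detected in 12, 10 and 1 cells.

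In the H2A family, Hist3h2a was the gene with the largest contrast. It had 631 reads in puberty, from 13 of 171 cells, none in the 107 adult cells 48 to 188 and 34 in 2 of the other 45 adult cells. The highest pubertal cell, at 2980 CPM, held 47.2% of the reads. A floor of 3 reads for adult cells 48 to 188 is 0.280 CPM. The pubertal level was 131.6-fold above that floor, and 69.86-fold without pubertal cell 4. The floor takes reads as independent, whereas these reads came from few cells, so neither fold is a lower bound. By cells, the share was 7.60% in puberty (4.11 to 12.6%), and 0 of 107 adult cells allows up to 3.39%. Hist1h2al, which the annotation calls a transcribed pseudogene (H2af-ps2, chr13:51200084-51203066) outside the clusters, was among the most often detected of all. It had reads in 22.8% of pubertal cells, 24.3% of adult cells 48 to 188 and 26.7% of the other adult cells, at 11.6, 26.1 and 7.33 CPM. Hist2h2aa2, none of whose coding windows is its own and whose sequence is partly shared with Hist1h2al, had reads in 15 adult cells 48 to 188, and all 15 also had reads on Hist1h2al. In puberty this was so of 13 of 18 cells. Hist1h2ae was detected in 14, 4 and 0 cells of the 3 sets.

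Of the H4 genes, Hist1h4d (312 counted bases, all coding) had the highest level per kilobase over all retained cells. Only Hist1h2bc was higher among the histone genes (113 against 70.7 CPM per kilobase). Hist1h4d held 456 of the 1098 H4 reads in puberty, 123 of 320 in adult cells 48 to 188 and 133 of 191 in the other adult cells. Its level per cell ran from 0 to 570 CPM in puberty and from 0 to 850 CPM in each adult set. Reads were present in 42 pubertal cells (24.6%, 18.3 to 31.7%), 8 adult cells 48 to 188 (7.48%, 3.28 to 14.2%) and 6 of the other adult cells (13.3%, 5.05 to 26.8%). A single cell held 69.1% of the reads in the first adult set and 63.9% in the other. Hist2h4 gave 217 reads in puberty, of which 97.7% were in cell 4. Hist1h4c gave 71, of which 95.8% were in cell 69. H3 genes were close to absent, at 2.92 CPM for the whole family in puberty and 1.71 CPM in the adult, with reads in 10 and 8 cells. The highest H3 genes per kilobase, Hist1h3b, Hist1h3c and Hist1h3e, had 12, 9 and 10 reads in all.

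**Figure D2:**
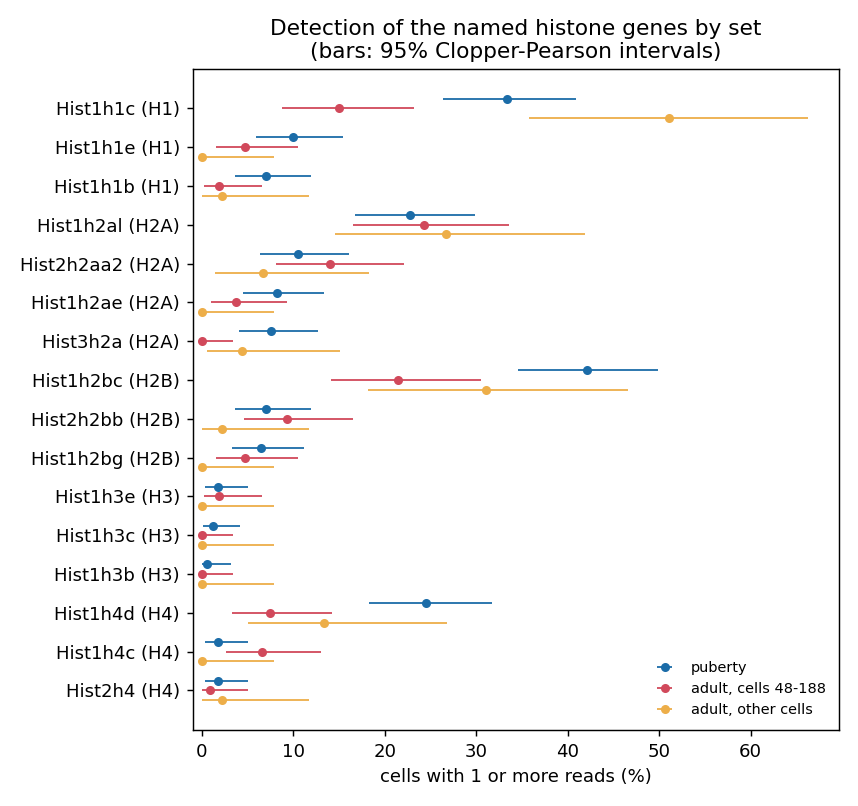
Share of cells with 1 or more reads at 100000 read pairs for the 16 named histone genes, in the 171 pubertal cells and in both adult sets; points are shares and bars are 95% Clopper-Pearson intervals. Hist1h2bc and Hist1h4d have their highest shares in puberty (42.1% and 24.6%), and Hist1h1c in the other adult cells (51.1%).

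Set against all genes, the stage contrasts of the histone genes were few, since in each comparison only 5 of the 69 reached 20 CPM in 1 of the sets, 6 different genes in all. Between puberty and the adult, Hist3h2a alone was 2-fold or more higher in puberty (36.9 against 2.24 CPM, log2 ratio 3.55, 3.18 to 3.91), 1 of 5 genes against 19.9% of the 7806 genes tested, and none was 2-fold or more lower, against 14.3%. The median log2 ratio was 0.35 over the 5 histone genes and 0.09 over all genes. Without the highest cell of each gene Hist3h2a fell under 20 CPM in puberty (19.6 CPM). Against adult cells 48 to 188, Hist1h4d (log2 ratio 1.15, 0.88 to 1.42) and Hist3h2a were higher in puberty (2 of 5, against 25.7% of all genes), and Hist1h2al was lower (−1.11, −1.36 to −0.85; 1 of 5, against 15.5%). Against the other adult cells, Hist3h2a was higher (2.15, 1.70 to 2.62; 1 of 5, against 28.1%) and Hist2h2be lower (3.68 against 28.7 CPM; 1 of 5, against 20.2%). Hist2h2be is named after its values were seen, and adult cell 10 held 94.6% of its reads in that set.

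Between the adult sets, Hist1h2al was 2-fold or more higher in cells 48 to 188 (log2 ratio 1.70, 1.23 to 2.19; 1 of 5, against 26.2% of all genes). Hist1h4d (−1.29, −1.63 to −0.95) and Hist2h2be, which had no reads there, were lower (2 of 5, against 28%). Both passed the level filter through a single cell of the other adult set. Without its highest cell there, Hist1h4d was at 10.9 CPM in place of 29.6 CPM, and the cell behind Hist2h2be is named above. The summed histone level differed little between the adult sets, with a log2 ratio of −0.07 (−0.17 to 0.03). Small RNAs without poly(A) tails differed far more between these sets. Their 12 genes summed to 967 CPM in adult cells 48 to 188, 6.44 CPM in the other adult cells and 37.0 CPM in puberty. Whether the histone reads came from RNA with or without such tails was not tested. Rn7sk, on which the split rests, made 752, 2.22 and 10.8 CPM of the small RNA sums. Rpph1, the RNA of RNase P, was at 126, 0.667 and 6.67 CPM.

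Proliferation was read from 68 listed genes of S phase and of G2 and mitosis, none of them a histone gene. A cell with reads on 14 or more of them (20%) was placed in a proliferative class, which is a range and not a cell type, and 39 cells lay between 11 and 16 genes. The class held 54 pubertal cells, 30 adult cells 48 to 188 and 8 of the other adult cells. Its cells also had more genes detected, with medians of 3324 against 2606 in puberty and 3716.5 against 2482 in adult cells 48 to 188, whose part in the shares below was not tested. Top2a and Mki67, which partly define the class, had reads in 83.3% and 74.1% of its pubertal cells.

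In puberty the summed histone level was 333 CPM (318 to 349) in the class against 326 CPM (315 to 336) in the other cells, a log2 ratio of 0.03 (−0.05 to 0.11). Other settings of the class, depth or cells moved it between −0.19 and 0.51. Single genes diverged. Hist1h4d had reads in 29 of 54 proliferative cells (53.7%, 39.6 to 67.4%) and in 13 of 117 others (11.1%, 6.05 to 18.3%), at 60.9 against 10.9 CPM, and 63.6% of the 44 cells with 20 or more proliferation genes had it. Hist1h1b was present in 11 of 54 against 1 of 117 cells (38.7 against 0.0855 CPM). Hist1h1e was present in 12 against 5 cells and Hist1h2ae in 11 against 3. Hist1h2bc was different, with reads in 21 of 54 (38.9%) against 51 of 117 cells (43.6%), and Hist1h1c had reads in 23 of 54 (42.6%) against 34 of 117 (29.1%). The Hist1h2bc sum of 120 against 78.8 CPM rested on cell 21, at 2460 CPM. Hist1h2al was at 24.1% against 22.2% of cells.

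**Figure D3:**
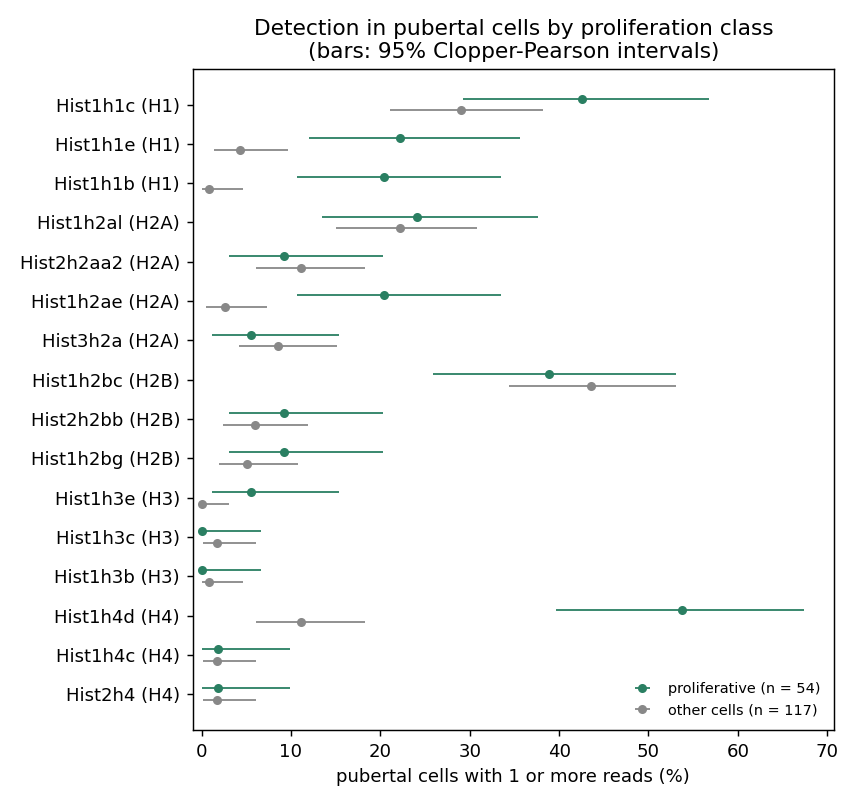
Share of pubertal cells with 1 or more reads for the 16 named histone genes, in the 54 cells of the proliferative class and the 117 other cells; bars are 95% Clopper-Pearson intervals. The intervals of Hist1h4d, Hist1h1b, Hist1h1e and Hist1h2ae do not overlap between the classes, while those of Hist1h2bc, Hist1h1c and Hist1h2al do. Cells of the class had more genes detected (medians 3324 and 2606), and the share of all genes whose intervals do not overlap is not given. By 20 percentage points or more, 1 of 18 histone genes tested (Hist1h4d) was higher in the class, against 10.4% of all 9808 genes.

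By the sums, Hist1h1b and Hist1h4d were 2-fold or more higher in the pubertal class (2 of 5 tested, against 18.8% of all genes) with log2 ratios of 5.19 (4.72 to 5.31) and 2.39 (2.10 to 2.67). Hist1h1c (−1.29) and Hist3h2a (−2.83) were lower in the sums (2 of 5, against 19%), although Hist1h1c had reads in a larger share of the class. Hist3h2a had reads in 3 of 54 (5.56%, 1.16 to 15.4%) against 10 of 117 cells (8.55%, 4.17 to 15.2%), and the highest of the other cells reached 2980 CPM. By the share of cells, Hist1h4d was the single gene of 18 tested that was 20 percentage points or more higher in the class (10.4% of all 9808 genes), and none was as much lower (0.0204%). The median difference over the 18 genes was 2.56 points, against 6.41 points over all genes. The proliferative pubertal cells also detected more histone genes, with a median of 4 against 2, and 21 of 54 (38.9%) against 17 of 117 (14.5%) had reads on 5 or more.

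In adult cells 48 to 188 the summed level was 87.7 CPM (77.4 to 98.9) in the class and 301 CPM (289 to 314) in the other cells, a log2 ratio of −1.77 (−1.96 to −1.58). The median cell was at 30 against 70 CPM. Detection was not lower in the class, with histone reads in 23 of 30 (76.7%) against 55 of 77 cells (71.4%). The median was 1 histone gene in both, and 5 of 30 against 8 of 77 cells had reads on 5 or more. Hist1h1c had reads in 1 of 30 against 15 of 77 cells and Hist1h4d in 2 against 6. By the sums none of 5 genes was 2-fold or more higher in the class (24% of all genes) and 4 were lower, namely Hist1h1c, Hist1h1e, Hist1h2al and Hist1h2bg (27%). Hist1h1e and Hist1h2bg passed the level filter through 1 cell each, since without it their level in the other cells was 3.95 and 2.89 CPM in place of 24.9 and 20.4 CPM. By the share of cells, none of 11 genes was 20 points higher (25.4% of all genes) or lower (0.321%). In the other adult cells the class had only 8 cells, with 130 CPM against 279 CPM, and cell 8 held 84.6% of the reads of the class. There Hist1h4d was higher (1 of 4, against 31.4%), in 3 of 8 against 3 of 37 cells. Cell 8 reached 850 CPM of Hist1h4d, and without the highest cell the gene was not called. Hist1h1c, Hist1h2bc and Hist2h2be were lower (3 of 4, against 39.2%). Whether the stages differed in this respect was not tested.

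The histone genes were also grouped by their counted models. In 32 histone genes the counted model was the coding sequence alone, and in 19 it ran 200 or more bases beyond it. For Hist1h1c, Hist1h1e and Hist3h2a it was 1561, 1931 and 1990 bases, with coding sequences of 639, 660 and 393 bases. The 19 extended genes held 70.3% of the histone reads and the 32 coding-only genes 17.7%, with median lengths of 1825 and 385.5 bases (levels of sums, not per length). Per kilobase the medians were 0.758 and 0.742 CPM. In puberty the coding-only genes reached 116 CPM (107 to 125) in the proliferative class and 36.5 CPM (33.1 to 40.1) in the other cells, a log2 ratio of 1.64 (1.46 to 1.82), and 3.07 without the highest cell of each class, since cell 69 held 68.4% of their reads in the other cells. In the class 86.1% of the coding-only reads were on Hist1h4d and Hist1h1b, described above. The other 30 coding-only genes were at 16.1 CPM (12.9 to 19.9) in the class against 25.6 CPM (22.7 to 28.6) in the other cells, and their log2 ratio of −0.63 turned to 1.55 without cell 69, so the direction rests on that cell. The extended genes were at 198 CPM (187 to 210) against 237 CPM (228 to 246), a log2 ratio of −0.26 (−0.36 to −0.15). In adult cells 48 to 188 both groups were lower in the class, at 16.0 against 50.3 CPM for the coding-only and 60.0 against 209 CPM for the extended genes. In the other adult cells the coding-only sum of 115 CPM in the class fell to 7.14 CPM without its highest cell.

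**Figure D4:**
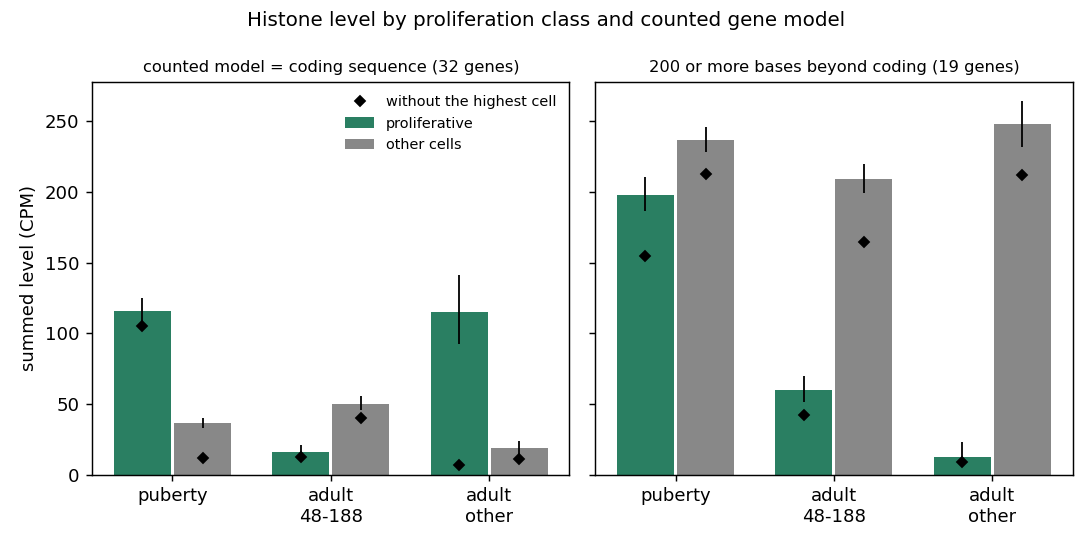
Summed level (CPM) of the 32 histone genes counted over coding sequence alone (left) and of the 19 counted over 200 or more further bases (right), by set and proliferation class; bars are sums over cells, error bars 95% Poisson intervals and diamonds the value without the highest cell. In puberty the coding-only genes are at 116 CPM in the class and 36.5 CPM in other cells, and the extended genes at 198 and 237 CPM; Hist1h4d and Hist1h1b hold 86.1% of the coding-only reads of the class.

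A pubertal cell, number 69, stood apart from all others in histone reads. It had reads on 40 of the 69 genes at 100000 read pairs, whereas the next highest cell, pubertal cell 180, had 17 and the median cell 2. Its summed level of 5520 CPM was the highest of all and made 9.84% of the pubertal total, which was 298 CPM without it. All 5 families took part, with 3 H1, 10 H2A, 11 H2B, 7 H3 and 9 H4 genes and levels of 280, 1080, 1740, 220 and 2200 CPM. Its highest genes were Hist2h2bb (810 CPM) and Hist1h4c (680 CPM). Of the 40 genes 31 had short counted models, with fewer than 200 bases beyond the coding sequence, as had 48 of all 69. In 6 genes it was the only cell with reads. It was not in the proliferative class, with reads on 5 S-phase and 7 G2 and mitosis genes, with a depth of 133429 read pairs and 2708 detected genes, against set medians of 309941 and 2818. Cell 180, in contrast, had reads on 25 S-phase and 24 G2 and mitosis genes. Pubertal cell 4, next in summed level at 5110 CPM, owed it to 3 genes, Hist3h2a and Hist2h4 foremost.

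**Figure D5:**
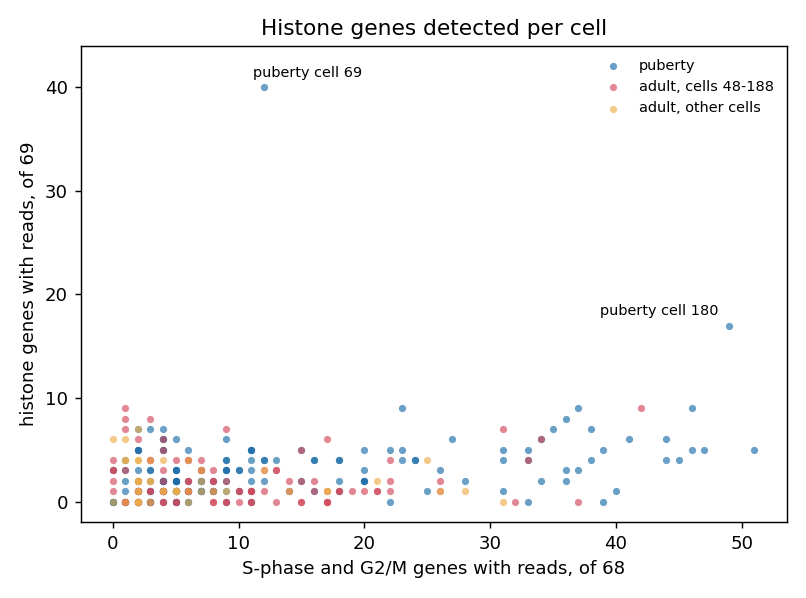
Number of histone genes with reads (of 69) against the number of S-phase and G2/M genes with reads (of 68) in each of the 323 retained cells, thinned to 100000 read pairs; each point is a cell, coloured by set. Pubertal cell 69 has 40 histone genes with 12 proliferation genes, near the class limit of 14, and cell 180 has 17 with 49.

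Cells were also described by their keratins, comparing reads on Krt5, Krt14 and Krt17 of the basal layer with those on Krt8, Krt18 and Krt19 of the luminal layer. In all 3 sets the summed histone level was higher where luminal keratins prevailed. It was 351 CPM (135 cells) against 247 CPM (35 cells) in puberty, 345 (51 cells) against 147 CPM (56 cells) in adult cells 48 to 188 and 335 (31 cells) against 72.1 CPM (14 cells) in the other adult cells. Without the highest cell of each group the values were 313 against 210 CPM, 276 against 117 CPM and 290 against 34.6 CPM. Hist1h2bc had reads in 47.4% of luminal-keratin and 22.9% of basal-keratin cells in puberty, in 29.4% and 14.3% in adult cells 48 to 188, and in 41.9% and 7.14% in the other adult cells. Hist1h1c followed the same order, at 35.6% and 25.7%, 25.5% and 5.36%, and 58.1% and 35.7%. For Hist1h4d the shares were 25.2% and 22.9%, 11.8% and 3.57%, and 12.9% and 14.3%. The order was thus reversed in the other adult cells, on 4 of 31 and 2 of 14 cells. Of the basal-keratin cells in adult cells 48 to 188, 21 of 56 were in the proliferative class, against 9 of 51 luminal-keratin cells, and the part of this in either contrast was not tested.

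Genes that accompany the histones in other roles were measured beside them. The 10 replacement histone genes summed to 450 CPM in puberty, 398 CPM in adult cells 48 to 188 and 279 CPM in the other adult cells, with reads in 171 of 171, 106 of 107 and 43 of 45 cells. Of the 6 that reached 20 CPM between puberty and the adult, 1 was 2-fold or more higher in puberty (H2afy, log2 ratio 1.25) and none lower, against 19.9% and 14.3% of all genes, and H1f0 had the smallest ratio (−0.54). H2afz, the gene of H2A.Z, had reads in 47 of 54 proliferative pubertal cells (87.0%) and 59 of 117 others (50.4%), and H3f3b, a gene of H3.3, in 19 of 54 and 49 of 117. Of 13 factors of histone mRNA processing, 9 reached 20 CPM, of which 3 were 2-fold or more higher in puberty and 1 lower, against the same 19.9% and 14.3%, with ratios from −1.55 (Cpsf2) to 1.95 (Lsm10). Against the other adult cells alone 2 of 9 were higher and 3 lower (28.1% and 20.2% of all genes). Slbp was detected in 34.5% of pubertal cells, 65.4% of adult cells 48 to 188 and 22.2% of the other adult cells, and in 28 of 30 proliferative against 42 of 77 other cells of the second set. Hist1h4d in that set was detected in 2 of those 30 cells.

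The S-phase and G2 and mitosis lists, which set the classes, summed in puberty to 1613 and 1909 CPM and in the adult to 1029 and 681 CPM (log2 ratios 0.65 and 1.49). The S-phase sum was 812 CPM in adult cells 48 to 188 (log2 ratio of puberty over them 0.99) and 1546 CPM in the other adult cells (0.062). For G2 and mitosis these ratios were 1.60 and 1.24. Of 23 S-phase genes tested 10 were 2-fold or more higher in puberty and 1 lower (19.9% and 14.3% of all genes), and Mcm5, a part of the replicative helicase, had the largest ratio (2.78). Against the other adult cells alone 9 of 26 were higher and 6 lower (28.1% and 20.2%). Of 26 G2 and mitosis genes 17 were higher and none lower, from Bub1b (0.14) to Cdk1 (2.91). Pcna, a clamp of the replication fork, reached 113 CPM in pubertal cells (53.2% of them with reads) and 108 CPM in adult cells (65.1%).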

How the data were processed

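The deposited values were raw counts of read pairs per gene, 1 table per cell. The authors aligned the reads to mm10 with Subread and counted them with featureCounts over Rsubread's own RefSeq gene models; versions and strand are not given in the sources used here. A combined table with the same values was not used. Of 27179 identifiers 25275 matched RefSeq of GRCm38.p6 (the unmatched held 1.84% of read pairs), and 15 mitochondrial and 124 ribosomal protein genes were dropped, which left 25136. RefSeq held 70 histone genes under the rule, 1 of them not used here. Cells with 100000 read pairs and 1500 genes were kept; total read pairs per cell ran from 2 to 1456360 in puberty and from 1 to 1167991 in the adult. No doublet caller was run; per the methods single capture was checked by microscopy. Counts were thinned without replacement (seed 1, numpy 2.4.6). Sums carry exact Poisson and shares Clopper-Pearson intervals (scipy 1.17.1), and log2 ratios a conditional binomial interval with 1 CPM added. The reads have no molecular identifiers, so intervals cover counting error only. TMM factors came from edgeR 4.0.16. The script that counts genes past 2-fold was checked on simulated counts with known changes. GENCODE M21 and RefSeq gave sequences. Named in full were genes detected in 20% of the cells of 1 set and the 3 highest per kilobase of each family (16 genes), of the other lists the extremes and fixed defining genes. The genes, lists and cell sets were chosen with earlier results of these data known. Alternatives were unthinned counts, 200000 read pairs and 2500 genes, TMM, 10 CPM added, no level filter, unique genes, other class limits, a second seed and leaving out the highest cells, Hist1h2al or pubertal cell 69. The result of 1 gene of the S-phase list is not reported here.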

Additional observations from a re-analysis of the deposited data

Results flagged for a closer look

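The log2 ratio of the summed histone level in proliferative over other cells was 0.033 in puberty and −1.60 in the adult. The adult shares of cells with histone reads were 78.9% in the class and 74.6% in the other cells. The pubertal interval (−0.05 to 0.11) spans 0, and the value was −0.19 with the class at 30% or set by S-phase genes alone. The H1 genes gave 0.21 and −3.79 and the H2B genes 0.41 and −1.57, the pubertal H2B value being 0.08 without the highest cell of each class. The H2A genes (−1.07 and −0.81) and the H3 genes (−0.76 and −0.30) had the same sign in both stages. The adult H3 interval (−1.11 to 0.63) spans 0, and the 5 H3 reads of the adult class came from 1 cell. The H4 genes gave 0.09 (−0.09 to 0.27) and −0.42 (−0.74 to −0.12). The difference between the stages was not tested, since each stage is 1 sample.

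The cells that did not pass the filter, which no comparison uses, also held histone reads. They amounted to 260 CPM of unthinned reads in the 50 pubertal cells left out and to 746 CPM in the 71 adult cells left out, against 288 and 273 CPM in the retained cells. A single cell held 51.6% and 43.4% of these reads, and without it the values were 128 and 448 CPM.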

How the results depend on the processing

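Values follow in the order puberty over adult, over adult cells 48 to 188 and over the other adult cells unless said. The summed histone log2 ratios (0.42, 0.44 and 0.37) became 0.077, 0.30 and −0.34 on unthinned counts, 0.064, 0.13 and −0.10 at 200000 read pairs and 2500 genes, and 0.30, 0.21 and 0.20 with TMM, which shifts every gene's log2 ratio by −0.12, −0.23 and −0.18. They were 1.501, 3.74 and −0.021 over genes with unique windows alone. Among these, Hist1h1b and Hist2h4 had 210 and 217 reads in puberty and 7 and 2 in adult cells 48 to 188. Pubertal cell 4 held 97.7% of the pubertal Hist2h4 reads, so these values lean on few cells. Leaving out the highest cell of each set gave 0.52 against adult cells 48 to 188. Without Hist1h2al the first and second were 0.50 and 0.56, and without pubertal cell 69 all were 0.28, 0.30 and 0.23. Leaving out Hist1h2al, cell 69, Hist1h4d and Hist1h1b, or the highest cell behind single values, and the second thinning seed for Hist1h4d, were chosen after seeing the data. The cause of these moves was not tested.

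Counts of histone genes 2-fold or more higher were 10, 11 and 18 with no filter beyond 1 read, and 15 between the adult sets. Lower counts were 3, 6, 2 and 5. With no filter, genes with reads in few cells enter. The share of all genes called is not given beside the counts of this paragraph, so they show only how the calls moved with the setting. On unthinned counts the lower counts were 1, 2, 2 and 4, no gene (0) was higher over the other adult cells and 2 were higher between the adult sets. At 200000 read pairs the first 2 lower counts were 1 and 2, and 3 genes were higher between the adult sets. With 10 CPM added, 1 was higher and 0 lower over adult cells 48 to 188, and 1 lower between the adult sets; TMM left 1 higher over adult cells 48 to 188. Without the highest cell of each gene the higher counts were 0 and 1, and the lower counts 0 over the other adult cells and 0 between the adult sets. Without cell 69, 1 gene was lower over the adult.

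Cells with histone reads rose to 92.4% in puberty and 84.1% in adult cells 48 to 188 on unthinned counts, and with 5 reads required were 72.5%, 48.6% and 51.1% in puberty and both adult sets.

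The class log2 ratio in puberty was 0.46 unthinned, 0.40 at 200000 read pairs, 0.16 and −0.19 with the class at 10% and 30%, −0.19 by S-phase and 0.51 by G2/M genes alone, and 0.25 without cell 69. In the adult it was −1.78, −2.05, −1.05 and −0.77 in that order, −1.14 by G2/M genes and −1.79 without the highest cells. In adult cells 48 to 188 it was −2.23, −2.49, −1.24 and −0.94, then −2.19 by S-phase and −1.33 by G2/M genes. In the other adult cells it was −1.43 at 200000 read pairs, −0.54 and −0.41 at the class limits, −0.44 by either list and −3.34 without the highest cells.

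Of the reference lists, puberty over adult moved without the highest cell of each gene to 0.97 (S phase), 1.90 (G2/M), 0.44 (replacement), 0.23 (processing) and −4.35 (small RNA). Unthinned G2/M and replacement genes gave 1.12 and 0.22. At 200000 read pairs G2/M, processing and small RNA genes gave 1.38, 0.062 and −4.43, and with 10 CPM added small RNA genes gave −3.88. The other 61 settings of these results stayed within their limits. No paired analysis was possible because no result comes from a test and the labels give the cells no shared replicate numbers. At this depth 51 of the 69 genes had reads in fewer than 5% of cells and 7 in none, and what difference these numbers could show was not measured.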
